A study of Mus musculus with 44 samples.

Results

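Dendritic cells (DCs) prime T cells with antigen, co-stimulation and secreted cytokines, and the genes of that last signal are described here in DCs from the draining lymph node. The 10 genes were named as a group by their function, with earlier results of these data known, and no measured value enters the rule: Il12b, Il27 and Ebi3, which encode chains of the IL-12 family, Il12rb2, which encodes a chain of the IL-12 receptor, Il15 and Il15ra, the cytokine and the receptor that carries it, Il1b and Il18 of the IL-1 family, Il6 and Tgfb1. All 10 were found among the 14699 genes of the expression table, and all 10 reached 1 CPM (reads of a gene per 1000000 reads on genes) in at least 5 of 44 libraries, the filter that left 11963 genes for testing.

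RNA-seq was performed on sorted CD45+CD11c+MHCIIhigh cells of inguinal draining lymph nodes, 1 mouse per library, taken 24 h after subcutaneous injection at ZT3, ZT9, ZT15 or ZT21 (Zeitgeber time, hours after lights on). Mice labelled WT received B16-F10-OVA melanoma cells (20 libraries, 5 per timepoint) or PBS as sham (12 libraries, 3 per timepoint), and mice labelled KO received the same melanoma cells (12 libraries, 3 per timepoint). The KO line is Clec9a-cre:Bmal1flox, homozygous for the floxed clock gene Bmal1 (Arntl) and heterozygous for a Cre that is active in conventional DCs and their precursors. Cells that never expressed this Cre keep the gene, and the labels do not give the strain or Cre status of the WT mice. All mice were females of 8 to 12 weeks. The labels do not say which mice belonged to which experiment, so an effect of experiment or day cannot be told apart from that of the group.

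The IL-12 family is built from pairs of chains. The product of Il12b joins a partner to form IL-12 or IL-23, and the product of Ebi3 joins that of Il27 to form IL-27. IL-12 drives T cells and NK cells towards interferon production. IL-15 is presented to T cells and NK cells while bound to the receptor chain encoded by Il15ra, so that the presenting cell makes both. IL-1β and IL-18 are made as precursors and cut by inflammasome proteases, so their mRNA level is not their output. IL-6 and TGF-β1 shape which helper or regulatory fate a primed CD4+ T cell takes, and TGF-β1 needs to be activated outside the cell.

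The genes are protein-coding and lie apart from each other in GRCm38: Il15ra at chr2:11705172-11733985, Il1b at chr2:129364569-129371164, Il6 at chr5:30013114-30019975 and Il12rb2 at chr6:67285986-67376293, Tgfb1 at chr7:25687002-25705077, Il27 at chr7:126589009-126595035 and Il15 at chr8:82331624-82403252, Il18 at chr9:50554700-50581841, Il12b at chr11:44400063-44414677 and Ebi3 at chr17:55952623-55957022.

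The libraries held 20088012 to 28962671 reads on genes in WT tumour mice, 29406729 to 55799163 in KO and 28003328 to 49590055 in PBS mice. The WT tumour libraries were thus shallower than every KO library and overlapped the PBS libraries only at the low end of the PBS range. The member with the fewest reads in any library was Il6 (48 reads) and then Il27 (82 reads). Ebi3 had a fractional read number in 44 of 44 libraries and Il15ra in 21, against 1 for Il12b and 0 for the other members, so that part of the reads of Ebi3 and Il15ra may have been shared with another annotated feature. Arntl itself was not lower in the libraries labelled KO: it ranged from 11.5 to 38.0 CPM there (mean 19.9) and from 8.67 to 24.4 CPM in WT tumour mice (mean 14.8), a difference of 0.38 (SE 0.12) on the log2(CPM + 0.5) scale (limma, adjusted p = 0.0153). In PBS libraries Arntl ranged from 12.3 to 34.8 CPM (mean 21.7), and the WT tumour libraries differed from these by -0.52 (SE 0.13, limma, adjusted p = 0.00161), so they were low against both other groups. A gene-level value does not separate transcripts that lack the floxed part, and the libraries are therefore called by their label.

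Markers of conventional DCs were detected in all libraries, Flt3 at 416 to 770 CPM, Zbtb46 at 63.6 to 193 and Itgax at 23.0 to 67.1 in WT tumour mice. The sum over the 7 markers, carried by Cd74 and the MHC class II genes H2-Aa and H2-Ab1, was 12726 to 24776 CPM in WT, 14019 to 24586 in KO and 17040 to 23966 in PBS. Markers of other cell types were present and moved with the groups. The 10 monocyte or macrophage markers summed to 419 to 1112 CPM in WT tumour libraries (median 697), 884 to 3325 in KO (median 1657) and 1819 to 3316 in PBS (median 2481). The 8 NK cell markers summed to 16.9 to 56.7, 37.1 to 164 and 85.5 to 618 CPM in the same order, and the 6 plasmacytoid DC markers to 21.4 to 52.7, 37.4 to 141 and 103 to 222 CPM. In these bulk samples, a change in the share of a cell type and a change of RNA per cell cannot be told apart. The melanoma markers summed to at most 14.3 CPM in any library, and of these Tyr and Mlana were under 1 CPM throughout.

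**Figure D1:**
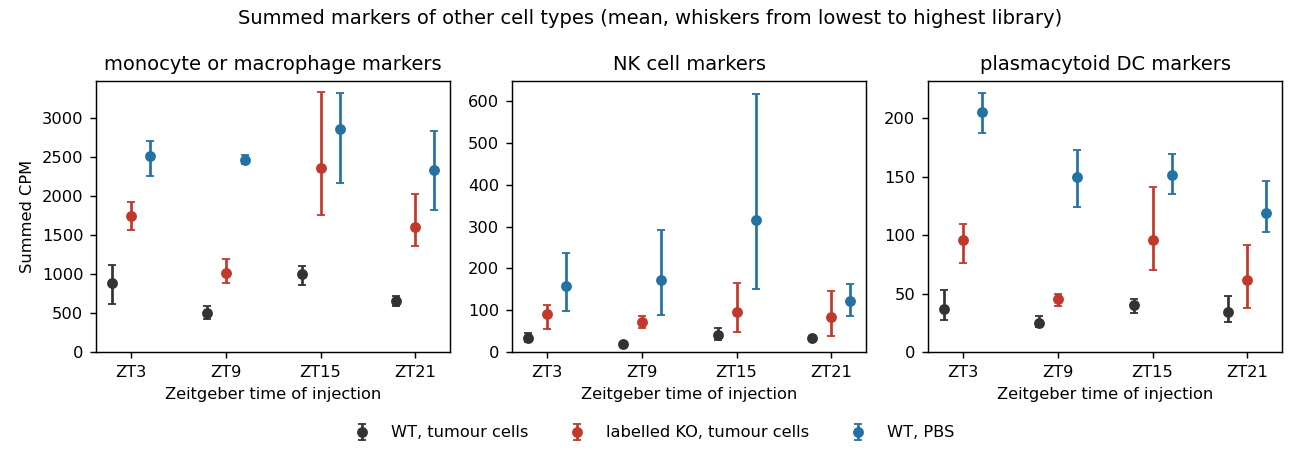
Summed CPM (y axis) of the markers of 3 other cell types by Zeitgeber time of injection (x axis) in WT tumour (black, n = 5 per timepoint), KO tumour (red, n = 3) and WT PBS mice (blue, n = 3). Points are means and whiskers run from the lowest to the highest library, and the summed monocyte or macrophage markers of WT tumour mice were lower at ZT9 (mean 493.1) and ZT21 (mean 654) than at ZT3 (mean 885) and ZT15 (mean 999).

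The 3 genes Il1b, Tgfb1 and Ebi3 passed the test in both comparisons of groups given below, and the sequences just before their annotated starts are shown for that reason. Both comparisons use the same WT tumour libraries. They are from RefSeq (GRCm38.p6, the build that the files call mm10), read 5′ to 3′ on the strand of the gene, and capitals mark the matches to any of the 6 motifs searched.
Il1b, chr2:129371165-129371389, reverse strand: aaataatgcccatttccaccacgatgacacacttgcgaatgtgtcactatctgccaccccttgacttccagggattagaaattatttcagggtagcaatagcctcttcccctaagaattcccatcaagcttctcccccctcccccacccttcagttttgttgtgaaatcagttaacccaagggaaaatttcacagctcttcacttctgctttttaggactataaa
Tgfb1, chr7:25686752-25687001, forward strand: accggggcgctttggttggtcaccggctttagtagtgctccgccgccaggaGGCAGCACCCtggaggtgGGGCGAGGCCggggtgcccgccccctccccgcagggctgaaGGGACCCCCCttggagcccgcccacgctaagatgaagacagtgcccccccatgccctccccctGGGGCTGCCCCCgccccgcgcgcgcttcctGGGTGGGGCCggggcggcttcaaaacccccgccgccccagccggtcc
Ebi3, chr17:55952373-55952622, forward strand: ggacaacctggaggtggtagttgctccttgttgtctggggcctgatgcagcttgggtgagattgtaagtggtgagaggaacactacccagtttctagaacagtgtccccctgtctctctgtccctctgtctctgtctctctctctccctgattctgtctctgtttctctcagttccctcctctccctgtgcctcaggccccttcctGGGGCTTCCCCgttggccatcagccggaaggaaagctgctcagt
The motifs were searched on both strands in the 250 bases before each RefSeq start listed for a gene. The stretches shown end where the annotated gene begins, which leaves 225 bases for Il1b, and 1 of the starts listed for Il15ra lies inside the annotated gene. The motifs were the E-box CACGTG, the D-box TTATGTAA, the RORE core AGGTCA, the kappaB motif (GGG, any 5 bases, CC), the AP-1 motif TGANTCA and the IRF motif (GAAA, any 2 bases, GAAA). The capitals in Tgfb1 and Ebi3 are all kappaB matches, some of which overlap, and the Il1b window held no match to any of them. The kappaB letters occur in 45.8% of the 32851 promoter windows of this length, against 6.02% for the E-box, 0.819% for the D-box, 14.0% for the RORE core, 6.75% for AP-1 and 2.98% for IRF. The E-box was found in none of the windows of the 8 members with an entry, and Il15 and Il27 had no entry. A match, or its lack, describes these letters and not binding.

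Among the members, Ebi3 had the highest level per length of its merged annotated exons in WT tumour mice, at 134 ± 16.8 CPM per kb of exon (SD, n = 20). Il15 followed with 116 ± 22.6, Il1b with 89.3 ± 47.2, Il12b with 82.6 ± 20.7 and Il15ra with 76.8 ± 18.8 CPM per kb. These neighbours overlapped: Il15 lay above Il1b in 15 of 20 libraries and Il1b above Il12b in 9 of 20. Il18 was lower, at 22.4 ± 4.01 CPM per kb, below Il15ra in 20 of 20 libraries. The lowest were Il27 (7.40 ± 2.27), Tgfb1 (3.67 ± 0.800), Il6 (3.41 ± 1.91) and Il12rb2 (2.97 ± 0.820), of which Tgfb1 exceeded Il6 in 13 of 20 libraries and Il6 exceeded Il12rb2 in 11 of 20. In KO and PBS libraries, Il1b took the second place (141 ± 36.8 and 141 ± 36.5 CPM per kb, n = 12 each) behind Ebi3 (174 ± 32.6 and 166 ± 26.5). The merged exons of a gene can be longer than any 1 of its transcripts, so this order depends on the length used. In CPM without that division, Ebi3 (mean 155) lay below Il15ra (342), Il15 (263), Il1b (170) and Il12b (162) in WT tumour mice.

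Whether the cytokine genes of tumour-bearing WT mice depended on the time of day was tested over the 4 timepoints. Il1b, Il15ra and Il15 differed between timepoints (limma F test, adjusted p = 0.0281, 0.0427 and 0.0458), and Tgfb1 lay just outside the threshold (adjusted p = 0.0548). Il15 did not pass under median-of-ratios scaling (adjusted p = 0.104). Thus 3 of 10 members passed at an adjusted p under 0.05, where 5.28% of all genes tested did, and 5 of 10 at an unadjusted p under 0.05 (the fifth was Il27), where 23.1% of all genes did. The median F value was 3.73 over the members and 1.57 over all genes. With only genes of a mean of at least 5 CPM tested, which all members reached, 882 of 9163 genes passed and the median F value was 1.72.

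Il1b, an inflammatory cytokine that acts on T cells and stroma, was lowest in WT mice at ZT9, with 121, 109, 73.5, 105 and 50.4 CPM in the 5 libraries. It was highest at ZT15 with 340, 418, 183, 212 and 168 CPM, so that the ranges at ZT9 and ZT15 did not overlap. The libraries at ZT3 held 245, 146, 220, 113 and 194 CPM and those at ZT21 held 110, 99.0, 232, 139 and 128 CPM. The means thus went down, up and down again across the day, but the ranges of all other pairs of timepoints overlapped. Whether the course had more than 1 wave was not tested. Tgfb1, an inhibitory cytokine gene, had the same order of timepoints: 16.2 to 22.0 CPM at ZT3 (mean 19.6 ± 2.15, SD, n = 5), 13.4 to 17.3 at ZT9 (14.8 ± 1.58), 17.6 to 25.5 at ZT15 (22.7 ± 3.47) and 13.3 to 22.3 at ZT21 (16.8 ± 3.84).

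Il15 and Il15ra were instead lowest at ZT15 and highest at ZT9 and ZT21. Il15 was at 309, 217, 198, 245 and 263 CPM at ZT3, at 306, 291, 298, 284 and 286 at ZT9, at 197, 297, 180, 174 and 200 at ZT15, and at 308, 341, 317, 285 and 269 at ZT21. Apart from 1 library with 297 CPM, the ZT15 libraries lay below every library at ZT9 and ZT21. Il15ra was at 411, 247, 186, 363 and 339 CPM at ZT3, at 406, 375, 411, 451 and 405 at ZT9, at 237, 362, 236, 215 and 220 at ZT15, and at 386, 415, 405, 394 and 372 at ZT21. All ZT15 libraries of Il15ra lay below all of those at ZT9 and at ZT21, while the ZT3 libraries spread over both levels.

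**Figure D2:**
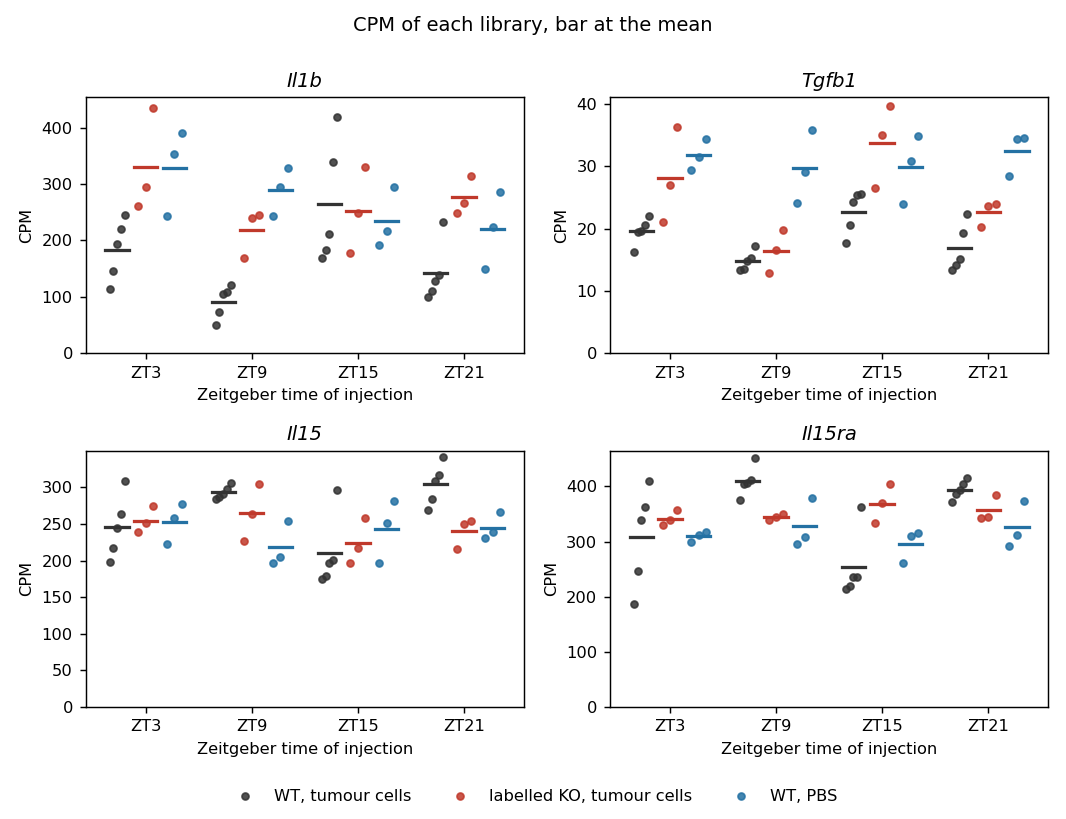
CPM (y axis) of Il1b, Tgfb1, Il15 and Il15ra in each library by Zeitgeber time of injection (x axis), for WT tumour (black), KO tumour (red) and WT PBS mice (blue). Points are libraries and bars are means. In WT tumour mice Il1b and Tgfb1 were lowest at ZT9, and Il15 and Il15ra were lowest at ZT15.

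The mean of ZT3 and ZT15 minus the mean of ZT9 and ZT21, a contrast chosen after the data were seen and given without a test, was 0.94 for Il1b (SE 0.22, log2(CPM + 0.5) scale), 0.41 for Tgfb1 (SE 0.10), -0.41 for Il15 (SE 0.10) and -0.56 for Il15ra (SE 0.13) in WT tumour mice. In KO mice it was 0.21 for Il1b (SE 0.19), 0.65 for Tgfb1 (SE 0.17), -0.08 for Il15 (SE 0.12) and 0.02 for Il15ra (SE 0.09). In PBS mice it was 0.14 (SE 0.19), -0.01 (SE 0.13), 0.09 (SE 0.12) and -0.11 (SE 0.11) in the same order. Both the genes and the contrast were picked from the WT values, so these numbers cannot show a loss of the course in KO or PBS mice. The timepoint calls in WT tumour mice rested on few libraries. Leaving out 1 of the 20 libraries in turn, Il1b passed in 16, Il15ra in 5 and Il15 in 4 of 20 fits, and 0 of the members passed without replicate 3 or 5 of ZT9 or replicate 1 or 4 of ZT15. Replicate 2 of ZT15 held the high values of Il15 (297 CPM) and Il15ra (362 CPM), and 5 members passed without it. Over all genes, leaving out 1 of these 20 libraries gave 278 to 1313 calls, against 632 with all 20. In the same libraries 8 of the 10 monocyte or macrophage markers, 3 of the 8 NK cell markers, 2 of the 10 T cell markers (Cd3d and Cd3g) and 1 of the 6 plasmacytoid DC markers (Cox6a2) differed between timepoints, and the summed monocyte or macrophage markers had the order of timepoints of Il1b. The summed conventional DC markers, a sum carried by Cd74, H2-Aa and H2-Ab1, had that order as well, with 0 of 7 passing. Their means were 14171 CPM at ZT9, 15627 at ZT21, 17404 at ZT3 and 20097 at ZT15. The summed T cell markers were also lowest at ZT9 (mean 320 CPM, against 422, 470.4 and 471 at ZT3, ZT15 and ZT21). The part of these cells in the result was not tested.

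Il27, which encodes the chain particular to IL-27, was at 3.46 to 9.31 CPM at ZT15 (median 4.27) and at 6.80 to 12.7 at ZT21 (median 9.41) in WT tumour mice. Its timepoints did not pass after adjustment (limma, adjusted p = 0.120). Fitted as a 24-h cosine, Il27 had an amplitude of 0.38 on the log2 scale with the peak at ZT0.74 (limma, adjusted p = 0.404), and Il18 an amplitude of 0.19 with the peak at ZT17.6 (limma, adjusted p = 0.529). Hence 0 of 10 members passed the cosine test in WT tumour mice after adjustment, where 0.0251% of all genes did, and 2 of 10 passed without it, where 9.2% of all genes did. A cosine of that period cannot follow a course with 2 maxima, which the means of Il1b had, though that shape was not tested.

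In KO libraries 0 of 10 members passed the test over timepoints or the cosine test after adjustment, as did 0% of all genes in both. Without adjustment Tgfb1 passed over timepoints (10.3% of all genes; limma, adjusted p = 0.359) and Il12rb2 passed the cosine test (10.5% of all genes; limma, adjusted p = 0.408). Tgfb1 was at 12.9, 16.6 and 19.7 CPM at ZT9 and at 35.0, 39.7 and 26.6 at ZT15, and these ranges did not overlap. In PBS libraries 0 of 10 members passed either test with or without adjustment. Of all genes, 0% passed each after adjustment, and 7.44% (timepoints) and 7.38% (cosine) without it. With 3 libraries per timepoint in KO and PBS against 5 in WT, the arms differ in power, so the counts of calls do not compare the courses.

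That comparison was made by the interaction of group and timepoint. For KO against WT, 0 of 10 members passed after adjustment (0.0502% of all genes) and 3 of 10 without it (18.3% of all genes): Il12rb2 (limma, adjusted p = 0.152), Il15ra (limma, adjusted p = 0.186) and Il1b (limma, adjusted p = 0.269). For PBS against WT, 0 of 10 passed after adjustment (0% of all genes) and 3 of 10 without it (11.9% of all genes): Il1b (limma, adjusted p = 0.218), Ebi3 (limma, adjusted p = 0.260) and Il15 (limma, adjusted p = 0.316). Under array weights, Il15ra (adjusted p = 0.0294) and Il12rb2 (adjusted p = 0.0303) passed the KO interaction, as did 1071 genes in all against 6 without these weights, so a difference in daily course between groups was not shown for any member without them. Between ZT9 and ZT21, 0 of 10 members differed in WT (0.226% of all genes), in KO (0.00836%) or in PBS mice (0%) after adjustment, and 0 of 10 passed an unadjusted p under 0.05, which 1371, 1308 and 637 of the 11963 genes did in WT, KO and PBS mice. Among the members in WT mice, Il1b had the lowest adjusted p and did not pass, with a difference of -0.62 (ZT9 minus ZT21, SE 0.30, log2 scale, limma, adjusted p = 0.443).

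The effect of the KO label was then compared at equal weight of the 4 timepoints. Il1b, Tgfb1, Ebi3 and Il12rb2 were higher in KO than in WT tumour mice, and none was lower. Thus 4 of 10 members passed as higher, where 23.5% of all genes did (2813 higher genes), and 0 of 10 as lower, where 10.2% did (1218 lower genes); under median-of-ratios scaling of the same values the split over all genes was 1750 higher and 1753 lower. Each of the 4 calls was also made with any 1 of the 32 libraries left out. The median difference was 0.11 over the members and 0.10 over all genes.

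Il1b ranged from 50.4 to 418 CPM in WT tumour mice (median 142) and from 169 to 434 CPM in KO mice (median 255), 1.73-fold higher on the log2(CPM + 0.5) scale (difference 0.79, SE 0.16, limma, adjusted p = 0.000465). The ranges overlapped over the day, but the KO libraries lay above all WT libraries of the same time at ZT3, ZT9 and ZT21. At ZT15 the KO libraries were not higher (mean 253 ± 76.3 CPM, SD, n = 3, against 264 ± 109 in WT, n = 5), with a difference of -0.01 (SE 0.32). Tgfb1 ranged from 13.3 to 25.5 CPM in WT (median 18.5) and from 12.9 to 39.7 in KO (median 23.8), with a difference of 0.40 (SE 0.09, adjusted p = 0.00129). The lowest KO value lay below all WT values, and the KO and WT ranges were apart at ZT15. Ebi3, the shared chain of IL-27, ranged from 118 to 189 CPM in WT (median 156) and from 139 to 260 in KO (median 202), with a difference of 0.36 (SE 0.08, adjusted p = 0.00120). Its partner Il27 was at 3.46 to 12.7 CPM in WT (median 7.43) and 2.45 to 12.6 in KO (median 7.18), with a 95% interval of the difference from -0.34 to 0.35.

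Il12rb2, which encodes the signalling chain of the IL-12 receptor and is used by T cells and NK cells, ranged from 6.39 to 17.998 CPM in WT (median 10.3) and from 7.79 to 24.6 in KO (median 15.7), with a difference of 0.42 (SE 0.13, limma, adjusted p = 0.0157). It did not pass under median-of-ratios scaling (adjusted p = 0.0581). At ZT3 the KO libraries held 17.1, 19.8 and 24.6 CPM and the WT libraries 7.13 to 10.8, a 2.07-fold difference. At ZT9 they held 18.0005, 8.74 and 10.6 against 6.39 to 17.998 and overlapped. The ligand chain Il12b did not pass, with 97.6 to 251 CPM in KO (median 129) and 86.8 to 245 in WT (median 152) and a 95% interval of the difference from -0.45 to 0.12. Neither Il15 (interval -0.23 to 0.07), Il15ra (-0.09 to 0.28), Il18 (-0.05 to 0.32) nor Il6 (-0.51 to 0.47) passed. Il6, the member with the fewest reads, was at 2.12 to 18.8 CPM in WT (median 6.93), 4.24 to 16.0 in KO (median 6.66) and 5.01 to 19.3 in PBS libraries (median 8.43), and these ranges overlapped widely.

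By timepoint, Il12rb2 and Ebi3 were higher in KO at ZT3 (limma, adjusted p = 0.0174 and 0.0375, where 5.2% of all genes passed in either direction), Il1b at ZT9 (adjusted p = 0.0120, where 8.94% of all genes passed), Il15ra and Tgfb1 at ZT15 (adjusted p = 0.0336 and 0.0402, where 14.8% of all genes passed) and Il1b and Il12rb2 at ZT21 (adjusted p = 0.0355 and 0.0467, where 14.2% of all genes passed). These calls rested on few libraries: 0 members passed at ZT3 without KO replicate 2 or 3 of that time, 0 at ZT9 without KO replicate 1 or 3, 0 at ZT15 without WT replicate 5 or KO replicate 1, and 0 or 1 at ZT21 without any of 19 of the 32 libraries. Over all genes these omissions gave 324 to 744 calls at ZT3 and 594 to 1275 at ZT9. They gave 822 to 2242 at ZT15 and 753 to 2005 at ZT21. Under median-of-ratios scaling Ebi3 at ZT3 (adjusted p = 0.1496) and Il12rb2 at ZT21 (adjusted p = 0.0935) did not pass. At ZT15 the median of all genes was 0.25 higher in KO, and 0.04 higher after median-of-ratios scaling, under which 0 members passed at that timepoint. Of all genes 1112 passed at ZT15 under this scaling, against 1768 without it. The differences of Il15ra and Tgfb1 there were 0.56 and 0.56 (SE 0.18 each) on the deposited scale. Markers of other cells differed as well. Of the 10 monocyte or macrophage markers, 1 was higher in KO at ZT3, 2 were higher and 1 lower at ZT9, 9 were higher at ZT15 and 3 at ZT21. Their summed level had means of 1746 CPM in KO and 885 in WT at ZT3, 1007 and 493.1 at ZT9, 2358 and 999 at ZT15, and 1597 and 654 at ZT21, and was thus higher in KO at each timepoint. Over the day 9 of 10 were higher in KO, as were 6 of 8 NK cell markers, 5 of 6 plasmacytoid DC markers, 2 of 3 Langerhans cell markers, 3 of 10 T cell markers (Cd3e, Cd3g and Cd4), 3 of 6 tested B cell markers and 2 of 6 tested granulocyte markers. The T cell markers summed to 257 to 572 CPM in WT and 377 to 890 in KO. Of the DC markers, 0 of 7 of conventional DCs and 1 of 7 of migratory mature DCs (Cd83, higher) differed. The part of these cells and of the lower depth of the WT libraries in the differences was not tested.

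**Figure D3:**
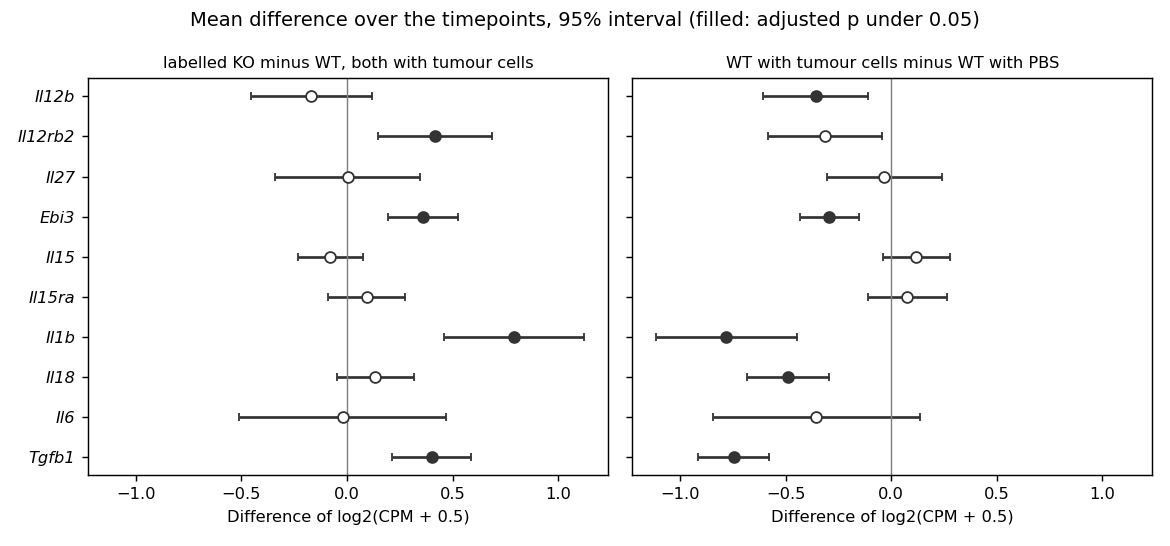
Difference of log2(CPM + 0.5) (x axis) for each member (y axis), at equal weight of the 4 timepoints, between KO and WT tumour mice (left) and between WT tumour and WT PBS mice (right). Points are estimates, bars are 95% intervals and filled points passed an adjusted p under 0.05 (limma). There were 4 members higher in KO, and 5 were lower in tumour than in PBS mice.

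Tumour cells were compared with PBS in WT mice in the same way. The WT tumour libraries are the same as above, so the 2 comparisons are not independent. Tgfb1, Il1b, Il18, Ebi3 and Il12b were lower after tumour cells than after PBS, and none was higher. Of the members, 5 of 10 passed as lower, where 24.6% of all genes did (2940 genes), and 0 of 10 as higher, where 13.3% did (1589 genes); median-of-ratios scaling gave 2430 lower and 2079 higher genes. Each of the 5 calls was also made under the 8 other settings tried and with any 1 of the 32 libraries left out. The median difference was -0.34 over the members and -0.04 over all genes.

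Tgfb1 ranged from 13.3 to 25.5 CPM after tumour cells (median 18.5) and from 23.9 to 35.7 after PBS (median 31.2), a difference of -0.75 (SE 0.08, limma, adjusted p = 4.4e-08). The groups were apart at ZT3, ZT9 and ZT21 and overlapped at ZT15. Il1b was at 50.4 to 418 CPM after tumour cells (median 142) and at 150 to 390 after PBS (median 265), a difference of -0.78 (SE 0.16, adjusted p = 0.000402). At ZT9 the PBS libraries held 329, 295 and 244 CPM, all above the highest tumour library of that time (121 CPM), and the difference was 3.27-fold. At ZT15 the tumour libraries were not lower (mean 264 ± 109 CPM, SD, n = 5, against 234 ± 53.6 after PBS, n = 3), with a difference of 0.10 (SE 0.33). Il18, the other inflammasome substrate, ranged from 16.2 to 33.1 CPM after tumour cells (median 22.6) and from 23.4 to 42.5 after PBS (median 32.7), a difference of -0.49 (SE 0.09, adjusted p = 0.000154).

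Ebi3 ranged from 118 to 189 CPM after tumour cells (median 156) and from 135 to 247 after PBS (median 184), a difference of -0.29 (SE 0.07, limma, adjusted p = 0.00110). Il12b ranged from 86.8 to 245 CPM after tumour cells (median 152) and from 135 to 298 after PBS (median 191), a difference of -0.36 (SE 0.12, adjusted p = 0.0200). Il12rb2 lay just outside the threshold, with a difference of -0.32 (SE 0.13, adjusted p = 0.0597) and a PBS range of 7.93 to 18.4 CPM. Il15 (interval of the difference -0.04 to 0.28), Il15ra (-0.11 to 0.26), Il27 (-0.31 to 0.24) and Il6 (-0.85 to 0.14) did not pass.

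By timepoint, Tgfb1 was lower after tumour cells at ZT3 (limma, adjusted p = 0.00656, where 10.5% of all genes passed in either direction), Tgfb1 and Il1b at ZT9 (adjusted p = 0.000135 and 0.000503, where 16.3% of all genes passed), Ebi3 at ZT15 (adjusted p = 0.00145, where 17.6% of all genes passed) and Tgfb1 at ZT21 (adjusted p = 0.000323, where 9.21% of all genes passed). At ZT3, 0 members passed without PBS replicate 3 of that time and 2 without WT replicate 1 or 5. With other single libraries left out, 2 to 4 members passed at ZT9, 1 to 3 at ZT15 and 1 to 2 at ZT21. Over all genes the omissions gave 639 to 1316 calls at ZT3 and 1228 to 2231 at ZT9. They gave 811 to 2410 at ZT15 and 706 to 1237 at ZT21. Ebi3 at ZT15 held 237, 247 and 184 CPM after PBS and 118, 145, 129, 142 and 172 CPM after tumour cells. At ZT21 its means were 167 ± 14.2 CPM after tumour cells (SD, n = 5) and 165 ± 25.8 after PBS (n = 3), a difference of 0.03 (SE 0.14) that did not pass. Markers of other cells moved as well: 9 of 10 monocyte or macrophage, 8 of 8 NK cell, 6 of 6 plasmacytoid DC, 5 of 6 tested B cell, 2 of 6 tested granulocyte and 2 of 3 Langerhans cell markers were lower after tumour cells. Of 10 T cell markers, 7 were lower and 1 was higher, and their summed level was 257 to 572 CPM after tumour cells and 484 to 989 after PBS. Of the DC markers, 3 of 7 of conventional DCs were lower and 2 of 7 of migratory mature DCs (Cacnb3 and Fscn1) were higher. The part of these cells and of the lower depth of the WT tumour libraries in these differences was not tested.

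**Figure D4:**
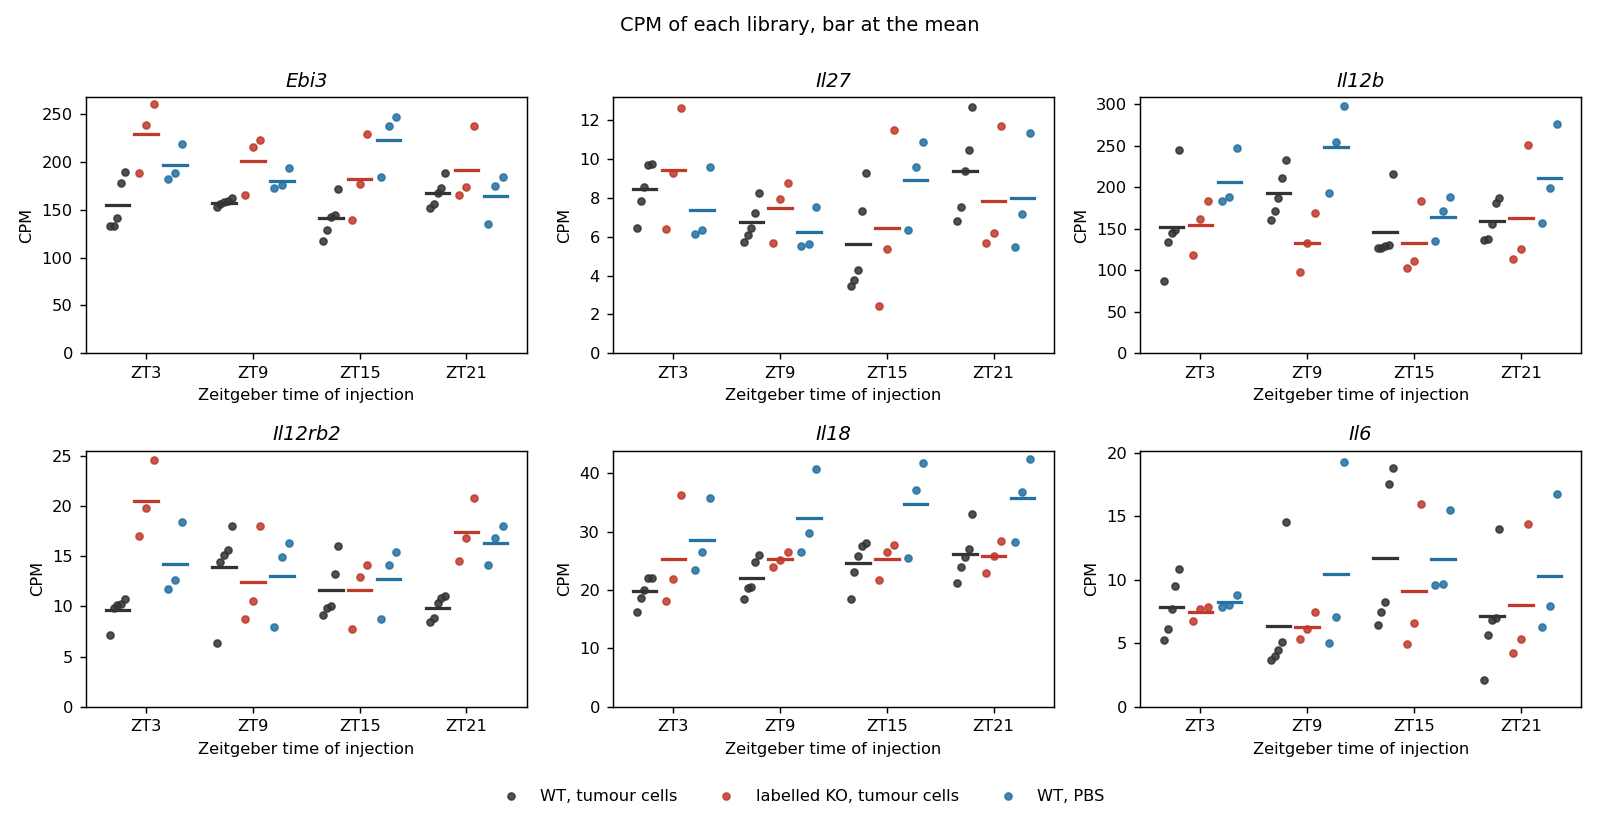
CPM (y axis) of Ebi3, Il27, Il12b, Il12rb2, Il18 and Il6 in each library by Zeitgeber time of injection (x axis), for WT tumour (black), KO tumour (red) and WT PBS mice (blue). Points are libraries and bars are means. Ebi3 lay higher in KO (median 202 CPM) and PBS (median 184 CPM) than in WT tumour mice (median 156 CPM), while Il27 had medians of 7.18, 6.75 and 7.43 CPM in the same order.

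The other genes of these pathways were taken from lists that hold no member. Their counts are to be read against the shares of all genes that passed, which were 23.5% higher and 10.2% lower in KO, 13.3% higher and 24.6% lower after tumour cells, and 5.28% over the WT timepoints; in lists this short, several counts lay near or below these shares. Of 9 IL-12 family chains and receptors, 3 were higher and 1 lower in KO, and 3 were higher and 4 lower after tumour cells than after PBS. Il12rb1, the second receptor chain of IL-12, was 2.53-fold higher in KO (adjusted p = 0.00731) and 5.74-fold lower after tumour cells (limma, adjusted p = 6.3e-07), at medians of 1.56, 5.28 and 9.57 CPM in WT, KO and PBS libraries. Il23r and Il27ra moved in the same directions, by 0.97 and 0.45 in KO and by -1.16 and -0.87 after tumour cells. Stat4, which transmits IL-12 signals, was the 1 gene of this list that differed between timepoints in WT mice (adjusted p = 0.0386).

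Of 8 genes that receive IL-15 or belong to its family, 3 were higher and 2 lower in KO, and 2 were higher and 3 lower after tumour cells. Il2rb, the receptor chain on T cells and NK cells that IL-15 engages, was at 13.4 to 37.6 CPM in WT, 35.4 to 103 in KO and 57.8 to 136 in PBS libraries, 2.37-fold higher in KO (limma, adjusted p = 5.3e-10) and 2.997-fold lower after tumour cells (adjusted p = 1.0e-11). Il2rb and Il7 were the 2 genes of the list that differed between timepoints in WT mice (adjusted p = 0.00702 and 0.0206). The called markers of NK cells, monocytes or macrophages, plasmacytoid DCs and B cells given above moved in the same directions as Il2rb in both comparisons. Of the 10 T cell markers, only 3 were called in KO (higher), and after tumour cells 7 were lower and 1 was higher. The part of these cells was not tested.

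Of 15 tested genes of the IL-1 family and inflammasome, 5 were higher and 2 lower in KO, and 1 was higher and 8 were lower after tumour cells. The IL-18 receptor chains Il18rap and Il18r1 were higher in KO by 1.51 and 1.09 and lower after tumour cells by 1.74 and 1.41 (log2 scale). These receptors are used by NK cells and T cells. Gsdmd, the pore-forming protein through which IL-1β leaves the cell, went the other way: 170.5 to 311 CPM after tumour cells in WT against 163 to 208 after PBS, 0.45 higher (limma, adjusted p = 3.0e-06), and 0.35 lower in KO (adjusted p = 0.000181). Casp4, a protease of the pathway, differed between timepoints in WT mice (adjusted p = 0.00560).

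Of 16 tested genes of TGF-β activation and signalling, 2 were higher and 2 lower in KO, 2 were higher and 4 lower after tumour cells, and 0 differed between timepoints in WT mice. Furin, which cuts the TGF-β1 precursor, was 1.75-fold higher after tumour cells than after PBS (limma, adjusted p = 4.3e-05) and 1.71-fold lower in KO (adjusted p = 0.00144), opposite in direction to Tgfb1. Nrros, which anchors latent TGF-β1 on myeloid cells, and the repressor Tgif1 followed the direction of Tgfb1 (0.52 and 0.59 in KO, -0.45 and -0.83 after tumour cells). Of 5 genes of IL-6 reception and signalling, 1 was higher and 1 lower in each comparison, and 1 differed between timepoints in WT mice. That gene was Socs3, the feedback inhibitor of the pathway (limma, adjusted p = 0.0102), which was also 1.95-fold higher in KO (adjusted p = 4.3e-05) and 2.07-fold lower after tumour cells (adjusted p = 4.1e-06), whereas Il6st, the shared receptor chain, fell by 0.41 in KO and was 0.62 higher after tumour cells.

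Of 10 other tested cytokine genes, 7 were higher and 0 lower in KO, and 1 was higher and 7 were lower after tumour cells. Ifng, a product of NK cells and T cells, was at 0 to 3.03 CPM in WT, 2.28 to 11.6 in KO and 3.43 to 21.5 in PBS libraries. Tnf and Ltb differed between timepoints in WT mice (limma, adjusted p = 0.0197 and 0.00560). Of 14 regulators of cytokine genes, 2 were higher and 0 lower in KO, 3 were higher and 4 lower after tumour cells, and 2 differed between timepoints in WT mice, namely Nfkbiz and Cebpb (adjusted p = 0.0172 each). Nfkbiz, a nuclear partner of NF-kappaB, was 1.68-fold higher in KO (adjusted p = 0.000113) and 2.32-fold lower after tumour cells (adjusted p = 6.8e-08).

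For 6 pairs, members were compared within each group by the correlation of their deviations from the mean of the condition, 18 relations in all. Il15 and Il15ra deviated together in WT tumour mice (Pearson r = 0.85, permutation p = 0.000560, adjusted p = 0.00694; Spearman rho = 0.79, permutation p = 0.00258, adjusted p = 0.0232; n = 20) and in PBS mice (r = 0.84, exact permutation p = 0.00540, adjusted p = 0.0278; rho = 0.85, exact p = 0.00540, adjusted p = 0.0312; n = 12). Without the 2 libraries farthest from the median of Il15, r was 0.73 and 0.75. The call in PBS mice was lost when any of 5 of the 12 libraries was left out (adjusted p up to 0.0583). In KO mice r was 0.30 (exact permutation p = 0.519, adjusted p = 0.709; rho = 0.34, exact p = 0.341, adjusted p = 0.472; n = 12), and the difference between groups was not tested. Both genes of a pair in 1 library share its depth and makeup of cells.

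**Figure D5:**
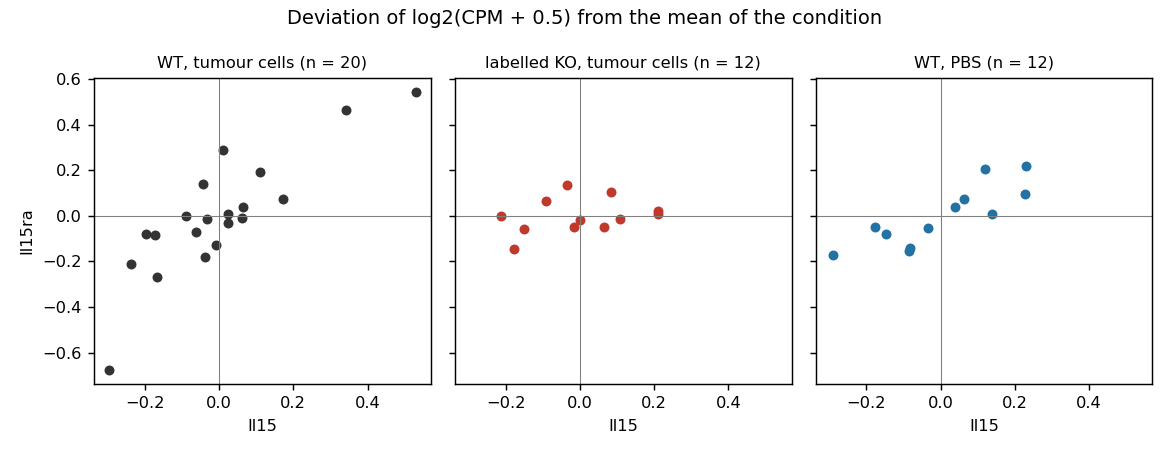
Deviation of log2(CPM + 0.5) from the mean of its condition for Il15 (x axis) and Il15ra (y axis) in WT tumour (n = 20), KO tumour (n = 12) and WT PBS mice (n = 12). Each point is a library, and r was 0.85, 0.30 and 0.84.

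In KO mice Il12b and Ebi3 deviated together (r = 0.94, exact permutation p = 0.000772, adjusted p = 0.00694; rho = 0.92, exact p = 0.000772, adjusted p = 0.0139; r without 2 libraries 0.91), as did both chains of IL-27, Il27 and Ebi3 (r = 0.91, exact permutation p = 0.00617, adjusted p = 0.0278; rho = 0.90, exact p = 0.00694, adjusted p = 0.0312; r without 2 libraries 0.88) and Il1b and Il18 (r = 0.77, exact permutation p = 0.00849, adjusted p = 0.0306; rho = 0.80, exact p = 0.0131, adjusted p = 0.0472; r without 2 libraries 0.83). In WT tumour mice the same pairs had r of -0.18, 0.47 and 0.06, and in PBS mice 0.05, 0.58 and 0.40, none of which passed. Il27 with Ebi3 and Il1b with Il18 each lost the call when any of 7 of the 12 KO libraries was left out. The other 2 pairs, Il12b with Il12rb2 and Il6 with Il1b, passed in none of the groups (r from -0.13 to 0.57 and from 0.54 to 0.60).

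The genes most like each member were sought among the 11962 others by Pearson r of the deviations from the 12 conditions over the 44 libraries, as a description. Il27 was most like its partner Ebi3 (r = 0.70), and Il15 was most like H2-T23, a non-classical MHC class I gene (r = 0.77), and Il15ra (r = 0.76). Il1b was most like the early response gene Ier3 (r = 0.84) and Tnfsf9, the ligand of the co-stimulatory receptor 4-1BB (r = 0.82). Il15ra was most like Prpf38b (r = 0.86) and N4bp2l1 (r = 0.86), Il12b like Zmynd15 (r = 0.78) and Slc8b1 (r = 0.76), and Ebi3 like Smagp (r = 0.73) and Serpinc1 (r = 0.73). The gene most like Il18 was 2210016L21Rik (r = 0.72), that most like Il6 was Nptn (r = 0.70), that most like Tgfb1 was Lcp2 (r = 0.69) and that most like Il12rb2 was Fam161a (r = 0.65).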

How the data were processed

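The authors aligned single reads of 50 bases to mm10 with STAR 2.7.0, counted reads on genes with HTSeq 0.9.1 and deposited one table of CPM, scaled by library size, for 44 libraries. Because 85.1 to 86.9% of the positive CPM values were whole reads (tolerance 0.0001) and the rest were fractional, no count test was run. Values were tested as log2(CPM + 0.5) with limma 3.58.1 (R 4.3.3) over the 11963 genes at 1 CPM or more in at least 5 libraries, with Benjamini-Hochberg adjustment over these genes; a call is an adjusted p under 0.05. A fold on this scale understates the change of low genes. Timepoints were compared by an F test and by a cosine of 24 h within each group, groups by the mean difference over timepoints, at each timepoint and by interaction; KO against WT and WT against PBS were fitted on 32 libraries each. Pairs of members were tested two-sided by permutation within conditions (100000 resamples in WT, 1296 exact ones in KO and PBS; Python 3.11.15, scipy 1.17.1), with adjustment over 18 relations.

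The members and lists were chosen with earlier results of these data known. Genes named from lists were at most 3 per list and comparison, those with the smallest p among the calls, beside the 2 genes most like each member and Arntl. Lists hold no member. The steps were tested on simulated data with 200 changed genes, of which 92.5% were recovered for the cosine in WT, 71% for the KO interaction and 90% for the KO mean difference. The changes were large, with a median estimate of 1.01 for the cosine amplitude and 0.992 for the KO difference (log2 scale). Recovery of smaller changes was not tested. Alternatives were pseudocounts of 1 and 0.1, median-of-ratios scaling, no filter, a mean of at least 5 CPM, an intensity trend, weights per library, a block for the replicate number, and the omission of each library. Each library is 1 mouse, so p-values measure the spread between mice. No library was identical to another.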

Additional observations from a re-analysis of the deposited data

Results flagged for a closer look

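In the 40 groups of 5 WT tumour libraries (10 members at 4 timepoints), 5 held a library far from the other 4 by Dixon's criterion, which chance alone gives in about 1 in 20 groups. The same library, replicate 2 of ZT15, stood high for 3 members: Il12b at 215.645 CPM (others 126.625 to 130.425), Il15 at 296.948 CPM (others 174.477 to 200.424) and Il15ra at 362.118 CPM (others 214.643 to 236.537). Replicate 2 of ZT9 was high for Il6, at 14.581 CPM against 3.66872 to 5.12728. Replicate 1 of ZT3 was low for Il12rb2, at 7.12608 CPM against 9.86474 to 10.7775. What sets these libraries apart was not tested.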

How the results depend on the processing

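Over the day, 4 members were called in KO against WT and 5 to 6 after tumour cells against PBS with any 1 library left out. Over all genes these omissions gave 3692 to 4081 and 4110 to 4842 calls. The calls at single timepoints, those over the WT timepoints and that of Il12rb2 over the day in KO depended on the settings. The cause was not tested. Array weights gave 6 members over the WT timepoints (3 as reported), 2 for the KO interaction (0), 4 for KO at ZT21 (2), 4 after tumour cells at ZT9 (2), 2 at ZT15 (1) and 2 at ZT21 (1), and turned Il12b in KO at ZT21 to a difference of 0.57 (limma, adjusted p = 0.0370). Over all 11963 genes those weights gave 1071 calls for the KO interaction (6 without them), 3675 for KO at ZT21 (1699), and after tumour cells 2514 at ZT9 (1947), 2103 at ZT15 (2106) and 1351 at ZT21 (1102). Median-of-ratios scaling gave 1 member for KO at ZT3, 0 at ZT15 and 1 at ZT21. Over all genes it gave 567 calls at ZT3 (622 without it), 1112 at ZT15 (1768) and 1501 at ZT21 (1699). Under it Il12rb2 was no longer called over the day in KO, nor Il15 over the WT timepoints (adjusted p = 0.104). No filter gave 1 member for KO at ZT21, where 1606 of 14699 genes passed. A mean of at least 5 CPM gave 4 members after tumour cells at ZT9, where 1702 of 9163 genes passed. With the replicate number as a block, 0 members passed over the WT timepoints, 1 for KO at ZT3, 0 at ZT15 and 0 at ZT21. The numbers do not pair the mice: over 210 pairs of libraries with the same number the median correlation was 0.0024, and 9 were over 0.1. Over all genes, the WT timepoints gave 632 calls, 2462 with array weights and 341 with the block. For KO the block gave 425 calls over all genes at ZT3, 1427 at ZT15 and 1407 at ZT21.

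With 1 library left out, the members called ranged from 0 to 5 over the WT timepoints, from 0 to 2 for KO at ZT3 (0 without KO replicate 2 or 3 of ZT3), ZT15 (0 without WT replicate 5 or KO replicate 1 of ZT15) and ZT21 (fewer without any of 19 libraries), from 0 to 1 at ZT9 (0 without KO replicate 1 or 3 of ZT9), and after tumour cells from 0 to 2 at ZT3 (0 without PBS replicate 3 of ZT3), 2 to 4 at ZT9, 1 to 3 at ZT15 and 1 to 2 at ZT21. Over all genes the same omissions gave 278 to 1313 calls over the WT timepoints. The ranges over all genes at single timepoints stand with the results above. For pairs, r ranged from 0.779 to 0.879 for Il15 with Il15ra in PBS (call lost without any of 5 libraries), 0.884 to 0.954 for Il27 with Ebi3 and 0.697 to 0.849 for Il1b with Il18 in KO (7 each); it ranged from 0.437 to 0.664 and 0.426 to 0.828 for Il6 with Il1b in WT and PBS and 0.379 to 0.738 for Il12b with Il12rb2 in PBS (call gained without any of 2 libraries each). Depth limits Il6 and Il27 most, with as few as 48 and 82 reads.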
